A study of Mus musculus with 8 samples.

Results

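Imprinted genes were examined in the adult mouse ventricular-subventricular zone (V-SVZ), the stem cell niche that lines the lateral ventricles. The 32 genes were taken by symbol from a list of well-known imprinted mouse genes, and all 32 were found among the 54307 genes of the count table. By general textbook knowledge, which is not specific to the V-SVZ, 20 of them are classed as paternally expressed and 10 as maternally expressed. The other 2, Gnas and Grb10, are classed as expressed from either allele according to transcript or tissue. Whether each gene, Dlk1 and Igf2 among them, keeps its class in this tissue was not measured. RNA was sequenced from the periventricular area of 1 hemisphere of 8 mice aged 8 weeks, 4 per genotype, all on the 129-Elite strain background. The KO mice were homozygous for an Lrig1 CreERT2 knock-in allele, which puts a tamoxifen-dependent Cre recombinase at the Lrig1 locus and disrupts the gene constitutively. The WT mice carried no such allele, and the labels name no tamoxifen or other treatment. The WT group held 3 females and 1 male (WT 2), and the KO group held 2 females and 2 males (KO 1 and KO 3). Values for 4 mice are given below in the order of the mouse numbers. Both parents were of 1 inbred background, so reads could not be assigned to a parental allele, and paternal and maternal are used here as known classes and not as measurements.

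Imprinted genes carry DNA methylation laid down in the egg or the sperm and kept through development, so that 1 parental copy is transcribed and the other is silent. They lie in clusters that share an imprinting control region, and several clusters pair coding genes with a long noncoding RNA. ZFP57, a zinc finger protein, binds the methylated letters TGCCGC at many control regions and helps to hold the mark through early development. Dlk1, a Notch-like ligand, and Igf2, a growth factor made by choroid plexus and meninges, are both known to act on V-SVZ stem cells.

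The promoters of the members that the results turn on, and of 2 clusters used as examples, are shown to describe their sequence. Neither DNA methylation nor ZFP57 binding was measured. They come from RefSeq with the GRCm38.p6 build and reach from 250 bases before to 50 bases after a transcript's start, while the deposited counts rest on a later annotation. Zdbf2 and Grb10 were the members called in the comparison of the sexes, Mest is a paternally expressed gene whose promoter lies in a germline-methylated region, and the Peg3 promoter faces that of Usp29. Capitals mark TGCCGC on the printed strand or its reverse complement GCGGCA.
Zdbf2, chr1:63200108-63200407, plus strand: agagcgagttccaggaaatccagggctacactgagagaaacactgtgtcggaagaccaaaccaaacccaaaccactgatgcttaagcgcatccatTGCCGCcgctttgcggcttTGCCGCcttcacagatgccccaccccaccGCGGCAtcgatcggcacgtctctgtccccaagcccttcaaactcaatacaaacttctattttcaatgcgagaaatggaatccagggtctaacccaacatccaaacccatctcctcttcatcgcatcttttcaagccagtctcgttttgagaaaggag
Grb10, chr11:12037371-12037670, minus strand: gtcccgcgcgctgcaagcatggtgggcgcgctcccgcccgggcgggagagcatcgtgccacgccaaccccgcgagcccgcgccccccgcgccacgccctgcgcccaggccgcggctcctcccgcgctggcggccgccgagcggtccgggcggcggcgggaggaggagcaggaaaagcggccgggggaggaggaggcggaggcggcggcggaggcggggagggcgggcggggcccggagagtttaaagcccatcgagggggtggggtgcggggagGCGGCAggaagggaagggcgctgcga
Mest, chr6:30737800-30738099, plus strand: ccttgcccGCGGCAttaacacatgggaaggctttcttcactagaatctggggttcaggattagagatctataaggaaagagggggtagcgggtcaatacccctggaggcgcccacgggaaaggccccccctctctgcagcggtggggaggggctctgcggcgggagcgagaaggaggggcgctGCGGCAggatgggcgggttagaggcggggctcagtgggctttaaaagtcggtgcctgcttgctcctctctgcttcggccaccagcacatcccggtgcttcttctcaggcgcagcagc
Peg3, chr7:6730370-6730669, minus strand: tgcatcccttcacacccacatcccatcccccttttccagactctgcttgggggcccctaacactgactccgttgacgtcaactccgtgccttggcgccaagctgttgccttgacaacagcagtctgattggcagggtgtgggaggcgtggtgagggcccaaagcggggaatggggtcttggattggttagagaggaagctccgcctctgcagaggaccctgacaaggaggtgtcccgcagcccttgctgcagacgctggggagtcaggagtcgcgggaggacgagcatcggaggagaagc

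The Zdbf2 promoter shown held 3 copies of the motif, that of Mest held 2, that of Grb10 held 1 and that of Peg3 held none. The Grb10 promoter shown held 45 CG pairs in its 300 bases, against 15 for Zdbf2, 17 for Mest and 13 for Peg3. The windows shown for Zdbf2, Grb10 and Mest are those with a motif. Zdbf2 also has a promoter with 38 CG pairs, Grb10 one with 9 and Mest one with 8, all without the motif, and another Mest window starts 3 bases from the one shown. Promoters were listed for 26 of the 32 genes, 40 promoters in all, and 12 of the 40 (30.0%) held the motif on either strand, against 11.6% of all 32851 mouse promoters. Counted by gene, 11 of 26 (42.3%) had it in at least 1 promoter, against 13.1% of all genes with a promoter. These counts hold the same DNA more than once, since a pair of Mest windows overlap and Snrpn and Snurf share 1 window. With windows that overlap on a strand taken as 1, 10 of 37 (27.0%) held the motif, against 11.7% of 30704 over all genes. The median number of CG pairs was 15 over the members' promoters and 7 over all promoters. The Peg3 and Usp29 promoters lie on opposite strands and share 263 bases, so 1 stretch of DNA serves a paternally expressed gene in each direction. A match to these letters is a description of the sequence and not a binding site.

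The depth, the targeted gene and the cell content of the tissue were checked first. The gene counts summed to between 47887437 and 61826150 per WT mouse and between 52664769 and 74482334 per KO mouse. Levels of a gene across mice are given as CPM, its count relative to the library total scaled by TMM. Levels compared between genes are given as TPM, which also divides by transcript length. Lrig1 stood at 45.5, 13.5, 41.4 and 34.3 CPM in WT mice and at 1.41, 4.15, 1.17 and 2.96 CPM in KO mice, so the groups did not overlap. Its log2 fold change was -3.80 ± 0.52 (SE), with an adjusted p (edgeR, quasi-likelihood, Benjamini-Hochberg over all genes tested) of 0.286, or 0.000176 with sex as a covariate. The labelled tissue was checked against markers of the V-SVZ lineage, and Dcx and Egfr were detected in every mouse. Dcx, a microtubule protein of migrating neuroblasts, stood at 28.1 to 33.2 CPM in WT and at 24.6 to 30.6 CPM in KO. Egfr, the growth factor receptor of transit amplifying progenitors, stood at 20.1 to 24.4 CPM in WT and at 18.9 to 21.8 CPM in KO. Gfap, of astrocytes and stem cells, and Thbs4, a secreted protein of the niche, had log2 fold changes of KO over WT of -0.44 ± 0.18 and -0.55 ± 0.23 (SE), with unadjusted edgeR p of 0.035 and 0.0383 and an adjusted p of 0.9998 for both. Cd24a, Dlx1, Dlx2 and Sp8, of neuroblasts and their progenitors, had estimates above 0, from 0.03 to 0.18.

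Markers of neighbouring brain regions differed in level between the dissected samples. The 10 hypothalamic and septal markers summed to 44.5, 15.6, 32.8 and 111 CPM in WT mice and to 30.9, 452, 45.1 and 88.5 CPM in KO mice. KO 2 stood highest with Avp at 110 CPM and Oxt at 89.1 CPM, and WT 2 stood lowest. Of these markers, Hcrt was at 0 in KO 2 and Sim1 at 0 in WT 2. The 8 cortical excitatory neuron markers summed to 484, 2077, 200, and 355 CPM in WT mice and to 615, 207, 1024 and 196 CPM in KO mice. Each of the 3 males was above each of the 5 females in that sum, but not for every marker. Tbr1, Fezf2 and Rasgrf2 overlapped between the sexes. The 8 striatal neuron markers summed to between 2354 and 7569 CPM in WT and between 3789 and 6125 CPM in KO.

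Among the imprinted genes the level per length covered a wide range. Gnas, whose main product is the stimulatory G protein alpha subunit, had the highest mean over the 8 mice at 732 TPM. Snrpn, a spliceosome component of the Prader-Willi region, followed at 607 TPM. Nnat, a small endoplasmic reticulum membrane protein that regulates calcium, reached 338 TPM, Impact, a regulator of translation under stress, reached 140 TPM and Inpp5f, a phosphoinositide phosphatase, reached 101 TPM. The listed levels of Gnas, Zdbf2 and Rian are understated, since the transcripts that could be named took 97.4%, 84.9% and 38.0% of their reads. The plot of TPM by mouse shows that the mice of both genotypes overlapped for every gene.

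**Figure D1:**
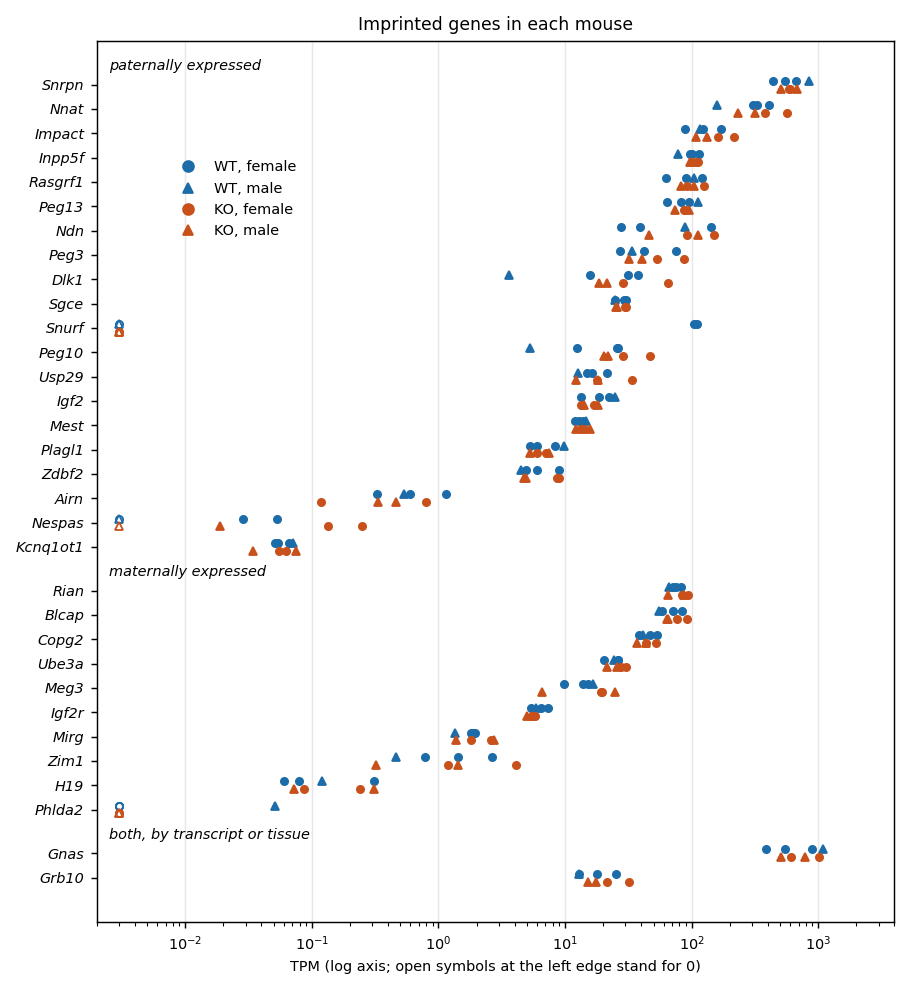
TPM of the 32 imprinted genes on a log axis, by class and mean level, with 1 symbol per mouse (blue WT, orange KO, circles female, triangles male, open symbols at the left edge for 0). WT 2, the blue triangle, sits far below the others for Dlk1 and Peg10, and Snurf is above 0 in only 2 mice.

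At the low end, Phlda2, a placental growth regulator, had at most 1 count in a mouse and was under the limit of 3 counts in all 8. Nespas, the antisense transcript of the Gnas cluster, had 0 to 9 counts and H19, the growth-limiting noncoding RNA next to Igf2, had 3 to 28 counts. Airn, the antisense RNA that silences Igf2r in the embryo, had 5 to 22 counts. Kcnq1ot1, the silencing RNA of the Kcnq1 cluster, had 143 to 397 counts but only 0.0340 to 0.0755 TPM, as it is very long. Without a stated strand setting, reads of Airn, Nespas and Kcnq1ot1 cannot be told apart from those of the genes they overlap.

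Snurf, a short protein read from the same messenger as Snrpn, showed how reads of nested transcripts are divided. It stood at 3.63 CPM in WT 1 and at 3.96 CPM in WT 3, both female, and at 0 in the other 6 mice. The only Snurf transcript in the annotation has 216 bases and lies whole within the 1932 bases of the main Snrpn transcript, at positions 63 to 278. It is shown because every read of it fits Snrpn equally well.
Snurf-201: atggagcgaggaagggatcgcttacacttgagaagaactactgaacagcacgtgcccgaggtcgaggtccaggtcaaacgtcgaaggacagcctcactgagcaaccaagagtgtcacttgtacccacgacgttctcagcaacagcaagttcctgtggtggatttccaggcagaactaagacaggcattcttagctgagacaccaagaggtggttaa
Snrpn itself stood at 707, 951, 653 and 756 CPM in WT mice and at 732, 762, 814 and 732 CPM in KO mice. WT 1 and WT 3, the 2 mice that had Snurf counts, were its lowest mice. With 8 mice Snurf had counts in too few mice to be tested. It entered the fit of females alone, an alternative chosen after seeing the data, with an unadjusted p of 0.0238 that rests on the counts of WT 1 and WT 3, and its values were not read as an expression difference.

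The KO and WT mice were then compared, to ask whether loss of Lrig1 changed imprinted genes in the niche. No imprinted gene was called by edgeR. That test did not call Lrig1 either (edgeR adjusted p = 0.286), so the absence of calls does not show an absence of change. DESeq2 with sex as a covariate, given below, called 3 members. Of the 28 genes with enough counts to be tested, 0 passed an edgeR adjusted p of 0.1, where 1 of all 17669 genes tested did (0.00566%). None of the 28 had an unadjusted p under 0.05 either, against 333 of all genes (1.88%). DESeq2 called 0 of the 28 (0.0736% of all genes) and had 1 of them under an unadjusted 0.05 (2.22%). None of the 28 had KO and WT mice that did not overlap, a state that 1.53% of all genes showed. H19, Phlda2 and Nespas had too few counts, and Snurf had counts in too few mice. In bulk tissue, fewer cells of a type and less RNA per cell cannot be told apart.

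The point estimates were mostly above 0. The log2 fold change was positive for 22 of the 28 genes and negative for 6, with a median of 0.18, while 49.7% of all genes were above 0 and their median was -0.001. The paternally expressed genes had 13 above and 5 below 0, with a median of 0.15, and the maternally expressed ones 7 above and 1 below, with a median of 0.19. Without KO 2 the paternal median was 0.045 and without WT 2 it was 0.096, while the maternal median was 0.12 without WT 2. Without both mice, an alternative chosen after seeing the data, 14 of 29 were above 0 and 15 below, with medians of -0.03 for paternal and 0.03 for maternal genes. H19, with 3 to 28 counts, was among those above 0. KO 2 was the highest mouse for 16 of the 28 members and WT 2 the lowest for 16. Leaving out the highest KO mouse or the lowest WT mouse lowers an estimate by construction. The fit had no sex term. It set the females WT 1, WT 3 and WT 4 against the female KO 4 and the males KO 1 and KO 3. In that fit 1 of 29, Igf2r with a log2 fold change of -0.22 ± 0.08 (SE), had an unadjusted p under 0.05, against 2.28% of all genes. In females alone, where KO 2 is 1 of 2 KO mice and WT 2 is absent, 26 of 30 were above 0 (50.9% of all genes were), with medians of 0.14 for paternal and 0.22 for maternal genes. In that fit 0 of the 30 passed the adjusted threshold (0.0166% of all genes did) and 6 had an unadjusted p under 0.05 (5.31%). Meg3, Peg10, Grb10 and Impact of these were higher in KO, and Igf2r and Snurf were lower. The estimates of both classes were thus mostly above 0 with 8 mice and in females alone. They stood close to 0 without KO 2 and WT 2, where only KO mice were male. The part of sex in that shift cannot be told apart.

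**Figure D2:**
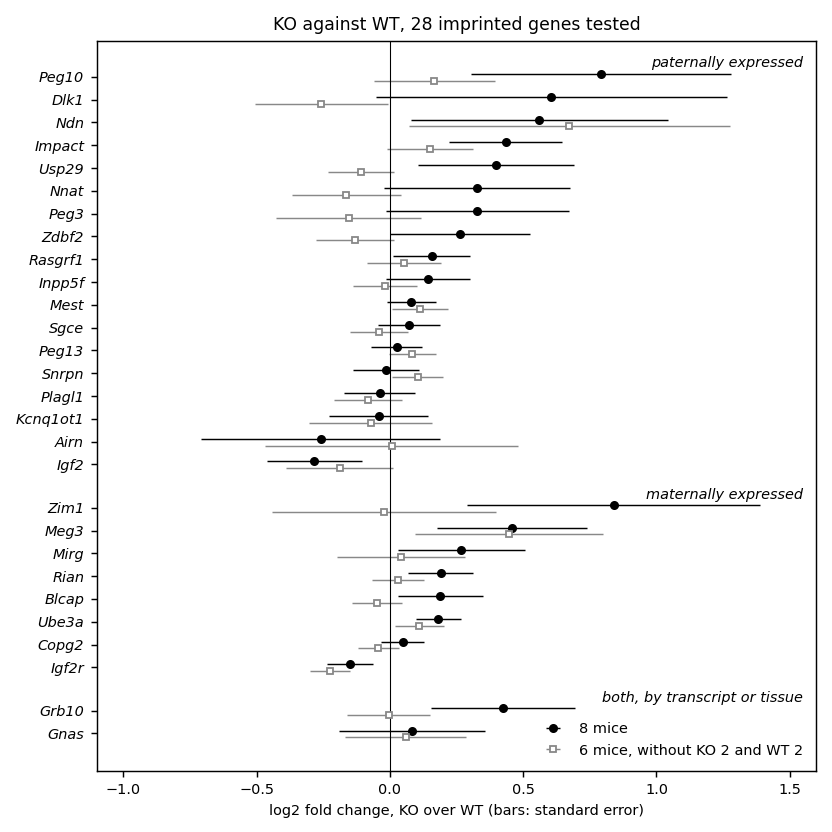
Log2 fold change of KO over WT with its standard error for the 28 imprinted genes tested, with all 8 mice (black circles) and without KO 2 and WT 2 (open grey squares). Zim1 at 0.84 and Peg10 at 0.79 lie farthest right with 8 mice. Of the 29 genes tested without the 2 mice 14 were above 0, among them H19, which is not drawn.

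Dlk1 varied more between mice than any other tested member. Its CPM were 76.9, 6.64, 43.4 and 75.1 in WT mice and 56.6, 144, 40.9 and 66.1 in KO mice. WT 2 was the lowest and KO 2 the highest, 21.7-fold apart, and the other 6 mice of both genotypes lay between 40.9 and 76.9 CPM. The log2 fold change of 0.61 ± 0.66 (SE) was smaller than its error, and it was -0.26 ± 0.25 without those mice. Its standard deviation within genotype was 1.30 on the log2 scale, and 97.3% of all genes tested had a smaller one. The noncoding RNAs of the same cluster, which come from the maternal copy, varied less. Meg3 stood at 63.4, 60.01, 48.4 and 56.7 CPM in WT mice and at 35.2, 84.2, 105 and 89.6 CPM in KO mice, 3 of them above all WT mice and KO 1 below, with a log2 fold change of 0.46 ± 0.28 (SE). In females alone it was 0.64 ± 0.12 (SE), with an edgeR adjusted p of 0.844. Rian stood at 338, 251, 329 and 290 CPM in WT mice and at 302, 399, 351 and 326 CPM in KO mice, with overlapping groups. Mirg ranged from 0.753 to 1.29 CPM in WT and from 0.957 to 1.56 CPM in KO.

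Igf2 was among the 6 genes with a negative estimate. It stood at 26.8, 46.0, 44.7 and 35.6 CPM in WT mice and at 31.6, 31.5, 36.7 and 25.9 CPM in KO mice. The KO mice lay within the WT range except for KO 4, just under it, and the log2 fold change was -0.28 ± 0.18 (SE). Of 10 leptomeningeal markers, 9 had a negative estimate too, and their sum ranged from 35.0 to 83.0 CPM in WT and from 36.9 to 68.7 CPM in KO with none at 0. The 10 choroid plexus markers, none at 0, summed to 281 to 318 CPM in WT and 255 to 281 CPM in KO. Most of each sum was Enpp2 alone, at 231.6 to 300.5 CPM in WT and 177.7 to 238.4 CPM in KO. Ttr, which defines that tissue, ranged from 1.53 to 29.4 CPM, so the sum says little about choroid plexus content. The part of these tissues in the Igf2 level was not tested. Igf2r, the receptor that clears IGF2 from the cell surface, ranged from 34.9 to 44.2 CPM in WT and from 35.1 to 38.4 CPM in KO. Its log2 fold change of -0.15 ± 0.09 (SE) had an edgeR adjusted p of 0.9998.

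The Peg3 cluster holds Peg3, a zinc finger protein tied to maternal behaviour and growth, with Usp29, a ubiquitin protease, and Zim1, a zinc finger gene of the maternal copy. Peg3 stood at 283, 196, 205 and 441 CPM in WT mice and at 237, 577, 258 and 340 CPM in KO mice. Usp29 stood at 65.5, 46.7, 73.5 and 79.0 CPM in WT mice and at 56.7, 146, 73.8 and 72.1 CPM in KO mice. Zim1, much lower, stood at 1.91, 1.31, 1.32 and 4.22 CPM in WT mice and at 1.89, 8.33, 2.39 and 3.04 CPM in KO mice. In each of them KO 2 was highest and WT 2 lowest. The log2 fold changes of 0.33 ± 0.34, 0.40 ± 0.29 and 0.84 ± 0.55 (SE) became -0.15, -0.11 and -0.02 without those mice.

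Peg10, a retrotransposon-derived gene needed in the placenta, stood at 134, 22.9, 72.5 and 113 CPM in WT mice and at 124, 234, 96.9 and 139 CPM in KO mice. WT 2 lay far below the other 7, and the log2 fold change was 0.79 ± 0.49 (SE) with it and 0.17 ± 0.23 without WT 2 and KO 2. Sgce, the sarcoglycan gene whose loss causes myoclonus-dystonia, shares a promoter region with Peg10 in the opposite direction. It stood at 32.8, 23.8, 30.9 and 29.01 CPM in WT mice and at 32.03, 32.2, 26.1 and 32.2 CPM in KO mice. The males WT 2 and KO 3 were below all other mice, while the male KO 1 stood at the level of the KO females.

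Nnat and its host gene Blcap, a cell cycle regulator, moved over the same mice. Nnat stood at 208, 94.1, 257 and 244 CPM in WT mice and at 244, 375, 145 and 245 CPM in KO mice. Blcap stood at 98.1, 65.9, 90.9 and 98.9 CPM in WT mice and at 97.7, 124, 81.5 and 99.4 CPM in KO mice. WT 2 and KO 3, both male, were the lowest mice for both genes, and KO 2 was the highest. Their log2 fold changes for KO over WT were 0.33 ± 0.35 and 0.19 ± 0.16 (SE).

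Grb10 and Zdbf2 also had WT 2 as the lowest mouse and KO 2 as the highest. Grb10, an adaptor that damps insulin receptor signalling, stood at 51.8, 31.98, 43.5 and 62.3 CPM in WT mice and at 46.5, 97.3, 49.7 and 61.0 CPM in KO mice. Zdbf2, a gene that promotes feeding and growth in the newborn, stood at 56.4, 30.4, 52.0 and 65.6 CPM in WT mice and at 50.6, 86.5, 45.0 and 63.4 CPM in KO mice. Their log2 fold changes for KO over WT were 0.43 ± 0.27 and 0.26 ± 0.26 (SE). Impact stood at 290, 232, 222 and 332 CPM in WT mice and at 279, 516, 303 and 356 CPM in KO mice, with a log2 fold change of 0.43 ± 0.21 (SE). The edgeR adjusted p of all 3 was 0.9998.

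The Prader-Willi and Angelman region held members with small and with large spread. Ube3a, the ubiquitin ligase of Angelman syndrome, had the lowest spread of the 28. It stood at 174, 142, 158 and 148 CPM in WT mice and at 168, 186, 165 and 186 CPM in KO mice, with a log2 fold change of 0.18 ± 0.08 (SE). Ndn, a growth-restraining MAGE family protein of neurons, stood at 107, 208, 86.0 and 335 CPM in WT mice and at 337, 244, 116 and 389 CPM in KO mice. Its highest and lowest mice were KO 4 and WT 3, so it did not follow the order seen for Peg3 and Dlk1.

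The remaining tested members differed between mice to unlike degrees. The highest mouse stood 1.24-fold above the lowest for Copg2, 2.33-fold for Gnas and 4.10-fold for Airn. Inpp5f stood at 263, 156, 254 and 204 CPM in WT mice and at 253, 253, 218 and 244 CPM in KO mice. Gnas stood at 620, 1047, 490 and 915 CPM in WT mice and at 627, 1143, 830 and 657 CPM in KO mice, a wider range in which WT 2 was the second highest mouse. Plagl1, Peg13, Mest, Copg2, Rasgrf1 and Kcnq1ot1 had log2 fold changes between -0.04 and 0.16, and Airn, at few counts, had -0.26 ± 0.45 (SE). Among Mest, a hydrolase-like gene, and Copg2, a coatomer subunit, the highest mouse was at most 1.33-fold above the lowest.

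Across the 28 tested members KO 2 was the highest of the 8 mice for 16 and WT 2 the lowest for 16. Over all genes tested KO 2 was highest for 16.0% and WT 2 lowest for 20.5%. These 2 mice also held the extremes of the hypothalamic and septal marker sum, and WT 2 that of the cortical sum. They were extreme on other sums too, so the order was not particular to those lists. KO 2 was highest on the ependymal sum, at 60.4 CPM, and lowest on the oligodendrocyte sum, at 5872 CPM. WT 2 was lowest on the striatal sum, at 2354 CPM, and highest on the leptomeningeal sum, at 83.0 CPM. The heat map of the members beside the marker sums shows which genes shared that order and which, such as Snrpn, Mest, Igf2r and Igf2, did not.

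**Figure D3:**
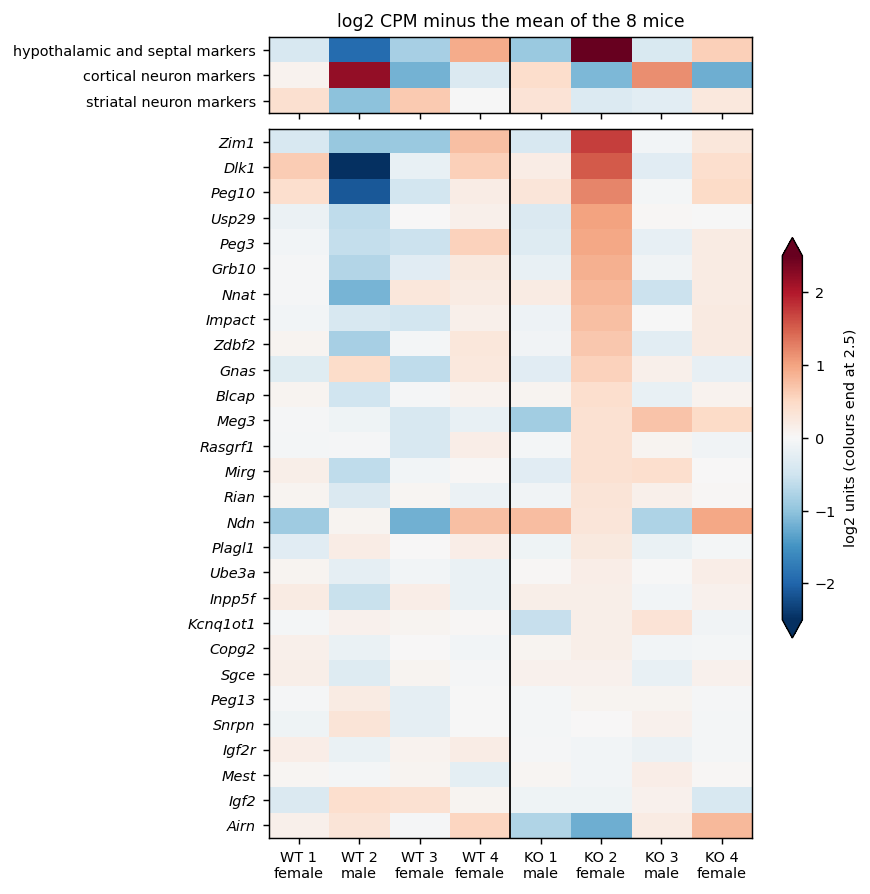
Log2 CPM of each mouse minus the mean of the 8 mice, for 3 sums of brain region markers (top) and the 28 imprinted genes tested (bottom, ordered by KO 2), red above and blue below the mean. KO 2 is red and WT 2 blue in the upper rows, from Zim1 to Zdbf2, as in the hypothalamic and septal marker row.

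The relation to the hypothalamic and septal sum and to the cortical sum, and to no other, was measured over the 8 mice after their levels had been seen. The log2 CPM of 23 of the 28 members correlated positively with the hypothalamic and septal sum, with a median Pearson r of 0.54. With Benjamini-Hochberg adjustment over 56 relations, 6 passed 0.05 by exact permutation of Pearson's r and 3 of them by Spearman's rho as well. Zim1 had r = 0.97 and rho = 0.976 (exact permutation p = 0.000223 and 0.000397, adjusted 0.00417 and 0.0213), and r = 0.924 without KO 2 and WT 2. Grb10 had r = 0.986 and rho = 0.952 (exact permutation p = 9.9e-05 and 0.00114, adjusted 0.00278 and 0.0213), and r = 0.971 without them. Peg3 had r = 0.966 and rho = 0.952 with the same p-values, and r = 0.955 without them. Dlk1 did not pass, with r = 0.793 and rho = 0.714 (exact permutation p = 0.0374 and 0.0576, adjusted 0.125 and 0.269), and r = 0.583 without them. Igf2 had r = -0.459 and rho = -0.524 (exact permutation p = 0.252 and 0.197, adjusted 0.403 and 0.432), and r = -0.311 without them. With the cortical sum 20 of 28 correlated negatively, with a median r of -0.49, and 0 passed by both measures. Each genotype held 4 mice and the sexes 5 and 3, too few to repeat the relation within them, and its part in any difference between groups was not tested.

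**Figure D4:**
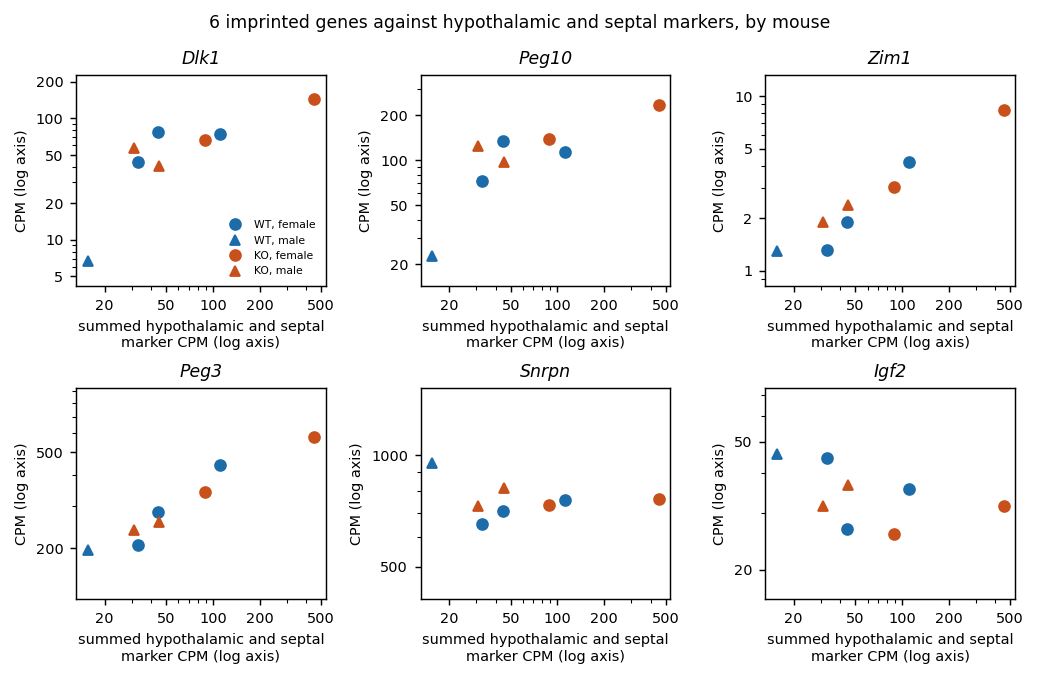
CPM of 6 imprinted genes against the summed CPM of 10 hypothalamic and septal markers, both on log axes, 1 symbol per mouse (blue WT, orange KO, circles female, triangles male). Zim1 and Peg3 are higher in mice with a higher sum, from WT 2 at 15.6 to KO 2 at 452 CPM of marker sum, while Snrpn and Igf2 do not.

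Neighbours in a cluster were compared with each other over the same 8 mice, 11 pairs in all. Peg3 and Zim1, which come from opposite parental copies, had r = 0.98 and rho = 0.976 (exact permutation p = 0.000124 and 0.000397, adjusted 0.00136 and 0.00437), and r = 0.926 without KO 2 and WT 4. Nnat and Blcap, also of opposite copies, had r = 0.961 and rho = 0.738 (exact permutation p = 0.00255 and 0.0458, adjusted 0.0139 and 0.101), and r = 0.837 without WT 2 and KO 3. Peg10 and Sgce, of the same copy, had r = 0.81 and rho = 0.833 (exact permutation p = 0.0172 and 0.0154, adjusted 0.0379 and 0.0798), but r = 0.426 without KO 2 and WT 2. Dlk1 and Meg3, of opposite copies, had r = 0.146 and rho = 0.0952 (exact permutation p = 0.742 and 0.84, adjusted 0.755 and 0.924), and r = -0.122 without the same mice. Each pair shared its mice and their tissue content, so these values describe the 8 mice.

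When sex was added to the fit as a covariate, the median log2 fold change of the 28 members was 0.25. No member passed the adjusted threshold (0.0113% of all genes did), but 11 of 28 had an unadjusted p under 0.05, each higher in KO, where 2.94% of all genes were higher and 6.95% passed in either direction. They were Dlk1, Rian, Ube3a, Usp29, Zim1, Peg10, Nnat, Blcap, Grb10, Zdbf2 and Impact, and the lowest edgeR adjusted p among them was 0.555. DESeq2 with sex was an alternative added after seeing the data. It called Lrig1, with a log2 fold change of -3.47 ± 0.16 (SE, DESeq2 adjusted p = 7.03e-97). In that fit 213 genes passed (1.21%) and 3 were members. These were Grb10 with a log2 fold change of 0.59 ± 0.17 (SE, DESeq2 adjusted p = 0.0745), Zdbf2 with 0.47 ± 0.14 (0.0906) and Peg10 with 1.30 ± 0.40 (0.0993). In edgeR without a sex term and without KO 2 and WT 2, their highest and lowest mice, every WT mouse left is female. The estimates of Grb10, Zdbf2 and Peg10 were then -0.01 ± 0.15, -0.13 ± 0.15 and 0.17 ± 0.23. In females alone, with KO 2, they were 0.60 ± 0.22, 0.37 ± 0.16 and 0.81 ± 0.30 (SE), with unadjusted edgeR p of 0.034, 0.0513 and 0.0327 and an adjusted p of 0.844 for each. In a fit with sex, WT 2 is the only WT male.

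Females and males were compared with genotype as a covariate, since the groups differed in sex. Zdbf2 and Grb10 were higher in females. They were 2 of 29 members that passed an adjusted p of 0.1, where 683 of 18104 genes passed the same edgeR test (3.77%, with 0.84% higher in females). Zdbf2 ranged from 52.0 to 86.5 CPM in the 5 females and from 30.4 to 50.6 CPM in the 3 males, with a log2 difference of 0.77 ± 0.14 (SE, adjusted p = 0.0409). It was the only member with every female above every male, as 2.77% of all genes were, and 7.54% kept the sexes apart in either direction. Grb10 ranged from 43.5 to 97.3 CPM in females and from 31.98 to 49.7 CPM in males, with a log2 difference of 0.72 ± 0.17 (SE, adjusted p = 0.0913). A further 9 members, Dlk1, Peg3, Usp29, Zim1, Peg10, Sgce, Nnat, Blcap and Impact, had an unadjusted p under 0.05, again with females higher, where 6.39% of all genes were higher at that level. Their log2 differences ran from 0.25 ± 0.10 (SE) for Sgce to 1.89 ± 0.53 (SE) for Dlk1, and their adjusted p from 0.105 to 0.276.

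The count of 2 rested on single mice. It was 0 without WT 2, KO 2 or KO 3 and 1 without WT 1 or WT 4, while it was 6 without KO 1 and 7 without KO 4. Without WT 2 every WT mouse is female, so with genotype in the fit the sex difference comes from the KO mice alone. Without both KO 2 and WT 2 it sets the single female KO 4 against KO 1 and KO 3. The log2 difference was then 0.42 ± 0.16 (SE) for Zdbf2 and 0.36 ± 0.20 for Grb10. Of the 8 cortical excitatory markers 7 were called lower in females, with sums of 196 to 484 CPM in females and 615 to 2077 CPM in males and none at 0. Of the 9 hypothalamic and septal markers tested, 3 were called and all 9 had higher estimates in females, with sums of 32.8 to 452 CPM in females and 15.6 to 45.1 CPM in males. The part of these tissues in the sex difference was not tested.

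Transcript starts separated the products of 3 loci that imprinting treats differently, since parental origin is known to be set by promoter. In Gnas, 4 groups of starts lay within 45.7 kb. The last, which makes the G protein subunit itself, took 85.0% to 94.6% of the TPM in every mouse. The third, the noncoding exon 1A transcript of the paternal copy, ranged from 25.2 to 116 TPM. The first, which makes the maternally expressed neuroendocrine secretory protein, stood at 8.70, 1.36, 0.328 and 26.2 TPM in WT mice and at 2.499, 34.3, 6.76 and 20.1 TPM in KO mice. Its highest mice were KO 2, WT 4 and KO 4 in that order, which was also their order by hypothalamic and septal marker sum. The second, which makes the paternally expressed extra-large subunit, reached at most 2.01 TPM. In each of these 4 groups the KO and WT mice overlapped.

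Grb10 was divided almost evenly between its first start and a second one 10.7 kb downstream. The first took 44.0% to 56.2% of the TPM and the second 42.9% to 55.9%. The first stood at 8.75, 6.37, 5.97 and 11.2 TPM in WT mice and at 6.74, 17.9, 9.34 and 11.0 TPM in KO mice. In Inpp5f the transcripts that start 76.2 kb into the gene, where the known paternally expressed brain form begins, took 74.1% to 81.6% of the TPM. They ranged from 63.4 to 90.2 TPM in WT and from 72.7 to 91.8 TPM in KO, while the full-length start ranged from 11.4 to 17.1 and from 13.6 to 15.5 TPM.

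**Figure D5:**
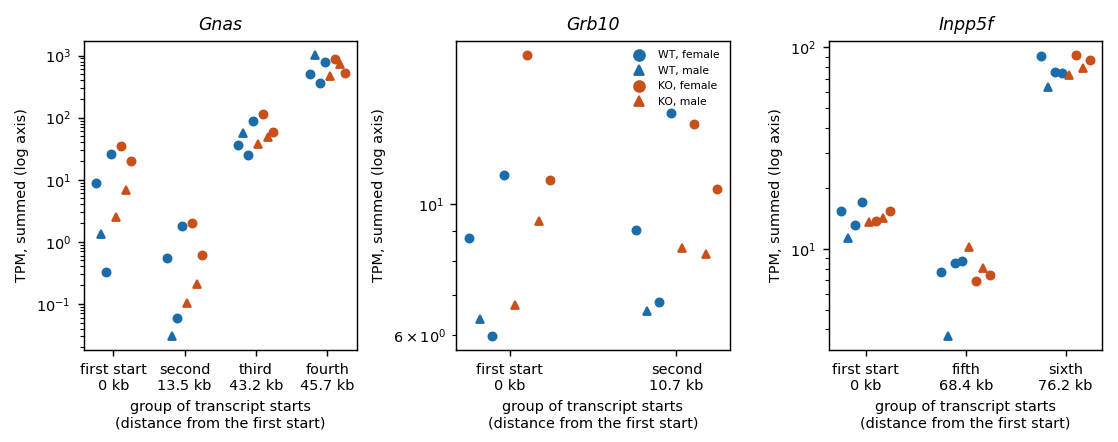
Summed TPM of transcripts that share a start in Gnas, Grb10 and Inpp5f, on log axes, 1 symbol per mouse (blue WT, orange KO, circles female, triangles male), with the distance of each group from the gene's first start in kb. The fourth Gnas group at 45.7 kb lies between 365 and 1030 TPM, the 2 Grb10 groups lie at like levels, and the sixth Inpp5f group lies above the others.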

How the data were processed

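RNA selected for poly(A) was sequenced by the study from 8 mice, and reads were demultiplexed with bcl2fastq 2.20 and quantified by the authors with Salmon (its version is not given in the sources used here) against Gencode release M29. The authors deposited estimated counts per gene for all mice and, per mouse, estimated counts and TPM per transcript. Whether strand was used is not stated. Gene names came from the reference tables and matched 94.8% of 54307 identifiers, and transcript names came from Gencode M21, which held 97.41% of transcripts and at least 99.16% of reads. TPM per gene is the sum over named transcripts.

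Estimated counts were rounded, genes were kept with filterByExpr, scaled by TMM and tested with edgeR 4.0.16 (R 4.3.3, limma 3.58.1, quasi-likelihood F test, Benjamini-Hochberg adjustment over all genes tested, threshold 0.1). The study used DESeq2, which served here as an alternative (version 1.42.0). A standard error is the absolute log2 fold change divided by the square root of F. Sex stood in the labels under cell type and was compared in a fit with genotype. CPM were computed with TMM-scaled library sizes. Transcript starts over 1500 bases apart formed separate groups. Correlations used log2 CPM and exact permutation, two-sided. The scripts were tested on simulated counts.

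All 32 members are named, and values of every mouse are given for Dlk1, Igf2, the 5 members with the highest TPM, and members with an unadjusted p under 0.05 for genotype (with or without sex in the fit) or sex, with groups that do not overlap, or with a mouse far from its group, and for others where they describe a cluster. A further 42 genes listed as imprinted are counted, and named by the same p or where groups do not overlap. The members and lists were chosen with earlier results of these data known. The study describes its WT controls as littermates, the litter of each mouse is not given in the sources used here, and p-values measure the spread between these mice. Alternatives were other scaling, filters, tests, covariates, length offsets, a robust fit, a replicate block and leaving out mice. Intervals from counting were not needed, and the limit for a gene at 0 is 3 counts per library. Coordinates are of GRCm38 and were not mixed with those of the build behind M29.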

Additional observations from a re-analysis of the deposited data

Results flagged for a closer look

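Of 80 groups of mice looked at, over the 28 tested imprinted genes, the marker sums, Lrig1 and the library totals, 3 (3.75%) held a mouse far from the others, and chance gives about 1 in 20. Sgce, the sarcoglycan gene next to Peg10, was 26.06 CPM in KO 3, while the other KO mice lay at 32.03 CPM or above. The sum of the hypothalamic and septal markers was 452.2 CPM in KO 2, where the next KO mouse had 88.5 CPM. The sum of the cortical excitatory markers was 2077 CPM in WT 2, where the next WT mouse had 484 CPM.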

How the results depend on the processing

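None of the 32 imprinted genes passed the threshold between KO and WT in any alternative but DESeq2 with sex, and the cause of the changes below was not tested. The number of genes called over the whole table was 1. It was 13 with DESeq2, 2 without a filter on low counts, 0 with at least 10 counts in every mouse, 0 with the replicate block, 2 with sex as a covariate, and 0 to 3 with 1 mouse left out (0 without WT 1 or WT 4, 2 without WT 3 and 3 without WT 2). The alternatives chosen after seeing the data gave 3 in females alone, 213 with DESeq2 and sex (3 of the 32 imprinted genes and 5 of the further 42) and 3 without KO 2 and WT 2. Between the sexes, 683 genes and 2 imprinted genes were called. DESeq2 gave 1565 and 9, no filter 1360 and 10, the replicate block 12 and 0, and genotype left out 9 and 0. Length offsets gave 1 imprinted gene. In the fit without KO 2 and WT 2 the sex difference rests on the single female KO 4 against KO 1 and KO 3, so its calls are not given. With 1 mouse left out the counts ran from 11 to 1527 genes and from 0 to 7 imprinted genes (82 genes without KO 3, 264 without WT 1, 316 without WT 4, 387 without KO 2, 11 without WT 2 and 1527 without KO 1). The paternal median of 0.15 lay between 0.045 and 0.20 when single mice were dropped and at -0.029 without KO 2 and WT 2. The maternal median of 0.19 ran from 0.12 to 0.25.

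The sign of several genes turned, given as log2 fold changes of KO over WT. With all 8 mice some of these were near 0, but Zim1 was 0.84, Dlk1 0.61, Grb10 0.43, Usp29 0.40, Peg3 0.33 and Nnat 0.33. With the replicate block Snrpn was 0.0001, and with sex as a covariate Peg13 was -0.0006 by edgeR and -0.0018 by DESeq2. In females alone Kcnq1ot1 was 0.024, Snrpn 0.088 and Plagl1 0.14. Without KO 2 and WT 2 the values were -0.26 for Dlk1, 0.10 for Snrpn, -0.15 for Peg3, -0.11 for Usp29, -0.023 for Zim1, -0.041 for Sgce, -0.043 for Copg2, -0.16 for Nnat, -0.049 for Blcap, 0.0071 for Airn, -0.0054 for Grb10, -0.13 for Zdbf2 and -0.017 for Inpp5f. With 1 mouse left out the ranges were -0.12 to 0.27 for Gnas, -0.082 to 0.11 for Snrpn, -0.016 to 0.14 for Sgce, -0.0021 to 0.10 for Copg2, -0.14 to 0.017 for Plagl1, -0.039 to 0.10 for Peg13, -0.18 to 0.11 for Kcnq1ot1 and -0.015 to 0.63 for Peg3. The highest values of the others were 0.88 for Dlk1, 0.56 for Usp29, 1.37 for Zim1, 0.52 for Nnat, 0.28 for Blcap, 0.59 for Grb10, 0.41 for Zdbf2 and 0.24 for Inpp5f, and the lowest for Airn was -0.69.

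The replicate numbers did not pair the mice. Deviations of same-numbered WT and KO mice correlated at 0.077, -0.22, -0.23 and 0.27, and under the block Zdbf2 and Grb10 had edgeR adjusted p of 0.185 and 0.255 between the sexes. With 4 mice per genotype and 1 WT male, the precision is set by the number of mice rather than by depth, except for H19, Phlda2, Nespas and Airn at under 30 counts.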

Other observations

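A further 42 genes listed as imprinted were counted beside the 32. Whether each of them, Th and Ddc included, is imprinted in this tissue was not measured. In the comparison of genotypes 38 of them were tested, 24 had a log2 fold change above 0 and 14 below, the median was 0.05, and 0 were called by edgeR or DESeq2, with 0 at an unadjusted p under 0.05 by edgeR and 1 by DESeq2. With sex as a covariate 7 of the 38 had an unadjusted edgeR p under 0.05 (6.95% of all genes had), namely Magel2, Rtl1, Asb4, Calcr, Sfmbt2, Th and Ddc, all higher in KO, and the lowest adjusted p was 0.555. DESeq2 with sex called 5 of the 38 (1.21% of all genes). These were Magel2 with an adjusted p of 0.00957, Asb4 with 0.0227, Ddc with 0.0408, Th with 0.0445 and Sfmbt2 with 0.0925. Without KO 2 and WT 2 every WT mouse is female. In edgeR without those mice or a sex term, these 5 had log2 fold changes between -0.14 for Magel2 and 0.37 for Sfmbt2. In females alone they lay between 0.52 for Ddc and 2.25 for Asb4, with an edgeR adjusted p of 0.844 for each. Bcl2l1, which protects cells from death, was the 1 gene whose groups did not overlap, where 1.53% of all genes were in that state. It stood at 92.6, 93.0, 94.4 and 103 CPM in WT mice and at 91.6, 91.2, 80.8 and 85.5 CPM in KO mice, with a log2 fold change of -0.13 ± 0.07 (SE, edgeR adjusted p after Benjamini-Hochberg adjustment over all genes from 0.802 to 1 over its alternatives).

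KO 2 was the highest mouse for 19 of these 38 genes as well. Magel2, a Prader-Willi region gene of hypothalamic neurons, stood at 3.87, 0.753, 2.13 and 6.67 CPM in WT mice and at 2.79, 21.9, 3.20 and 5.53 CPM in KO mice. Calcr, the calcitonin receptor, stood at 8.15, 0.0982, 2.17 and 7.54 CPM in WT mice and at 9.84, 22.6, 3.22 and 7.30 CPM in KO mice. Both had KO 2 at the top and WT 2 at the bottom, as Dlk1 and Peg3 did. In the comparison of the sexes 5 of the 38 were called, where 3.77% of all genes were. Magel2, Rtl1, Th and Ddc were higher in females, and Cdkn1c, an inhibitor of the cell cycle, was lower by 0.55 on the log2 scale (edgeR adjusted p = 0.0573). Cdkn1c ranged from 3.71 to 5.02 CPM in females and from 5.51 to 6.71 CPM in males, so these groups did not overlap. Dio3, an enzyme that inactivates thyroid hormone, Asb4 and Sfmbt2 had higher estimates in females with unadjusted p of 0.00771, 0.00783 and 0.014, and edgeR adjusted p of 0.14, 0.141 and 0.181. Every female was above every male for Dio3, at 2.32 to 3.08 CPM against 0.949 to 2.13 CPM, as for 2.77% of all genes. Asb4 stood at 1.51, 0.655, 1.51 and 2.96 CPM in WT mice and at 2.07, 16.4, 1.34 and 2.55 CPM in KO mice.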
